A study of Micropterus salmoides with 45 samples.

Results

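Liver of largemouth bass held for 24 h in severely oxygen-poor water was compared with liver of bass held for 24 h in well-oxygenated water. The members were chosen by their titles: the 3 libraries of severe hypoxia at 24 h and the 3 control libraries of the same time, which makes 6 of the 45 libraries of the series. Severe hypoxia meant 1.2 ± 0.2 mg/L dissolved oxygen, set with nitrogen gas. Control tanks were kept at 7 mg/L, and a moderate group, used here only beside the severe one, at 3.0 ± 0.2 mg/L. All fish were 6 months old, were kept at 20 °C, were fasted for the whole experiment and came from 3 tanks per oxygen level. The clock of the labels starts when the oxygen had reached its level. Largemouth bass (Micropterus salmoides) is a freshwater predatory fish, and whole liver was used, so fewer cells of a type and less RNA per cell cannot be told apart. The labels do not tie a library to a tank or to 1 fish. A difference between tanks and one between oxygen levels cannot be told apart, and all p-values rest on the spread between these libraries, which may be technical.

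When oxygen runs low, animal cells stabilise hypoxia-inducible transcription factors, which switch on genes of glucose uptake, glycolysis and oxygen delivery. The liver is the main store of glycogen in fish and supplies glucose to other organs. It also makes fatty acids and burns them, and the burning needs oxygen in the mitochondria. The title of the series names glucose and lipid use in the liver as its subject. Which genes carry these roles cannot be read here: the tables list 2660 genes by identifiers of a de novo assembly with no gene names beside them, and 0 of these matched the RefSeq gene table of the species. Lists of glycolysis, lipid, hypoxia and cell type genes could therefore not be applied, the label liver could not be checked against liver markers, and no sequence is shown. Identifiers of the form c84828_g3 give an assembly component (c84828) and a gene within it (g3).

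Levels are RPKM, reads scaled to the length of the gene and the total of the library, so levels can be set side by side between genes. The 6 libraries held 31515559 to 33313074 reads each, and the listed genes took 14.3% or more of them in severe hypoxia and 12.7% or less in control. Tests used log2(RPKM + 1), a scale that understates the change of low genes, in 1 limma model of all 45 libraries. Genes with a Benjamini-Hochberg adjusted p below 0.05 are named called, and 2656 of the 2660 listed genes reached 1 RPKM in at least 3 libraries and were tested. The table is already a selection of genes by the authors, whose rule is not given in the sources used here, so shares of called genes describe this list and not the whole liver.

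After 24 h of severe hypoxia, 1082 genes were higher (40.7% of those tested) and 689 lower (25.9%) than in control, 66.7% in all, with 70.8% at an unadjusted p under 0.05. Most of these changes were moderate in size. The median log2 change was 1.28 among the higher genes and -1.18 among the lower ones, against 0.22 over all 2656 genes. Changes of at least 2-fold were called for 840 higher genes (31.6%) and 489 lower genes (18.4%). On this scale rises reached further than falls. A change of at least 4-fold (2 on the log2 scale) was seen in 147 higher and 45 lower genes. One of at least 8-fold (3 on that scale) was seen in 39 and 6. With log2(RPKM + 1) a fall cannot exceed the control level itself, while a rise has no such limit. The median control level at 24 h was 8.06 RPKM in the lower and 3.77 RPKM in the higher genes, so their reach cannot be compared directly. Quantile normalization forces the same distribution of the listed genes on every library, which removes a shift common to them by construction. After it, 889 genes were higher and 855 lower, and the median change over all genes was 0.03. The excess of higher genes was thus nearly gone under this scaling, but such a result cannot tell whether the excess came from the scaling.

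The separation of the same 6 libraries was also counted without a test. In 1111 genes (41.8%) all 3 severe libraries lay above all 3 controls, and in 830 genes (31.2%) all 3 lay below, 73.1% in all. Of the called genes, 1041 of the higher and 656 of the lower had such groups without overlap. The calls compare these same libraries, so this is not separate support. Set against the whole range of the 15 control libraries of the 5 sampling times, 763 of the 1082 higher genes had all 3 severe 24 h libraries above every control library, and 272 of the 689 lower genes had all 3 below every one. Over all 2656 genes 29.6% lay above and 11.3% below in this way. The 15 libraries include the 3 controls of 24 h on which the calls rest.

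**Figure D1:**
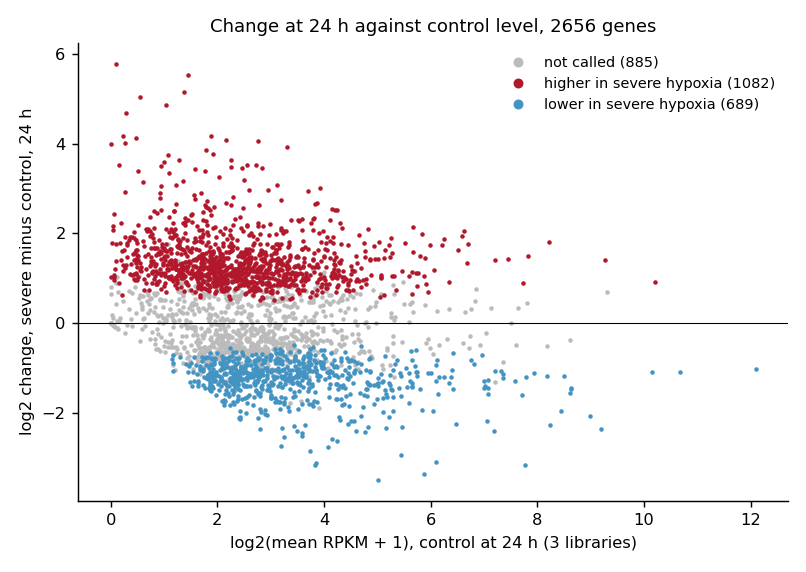
Each point is 1 of 2656 genes. The x axis gives log2(mean RPKM + 1) in the 3 control libraries at 24 h, and the y axis the log2 change, severe minus control. Rises (red, 1082 genes) reach 5.79, and falls (blue, 689 genes) reach -3.50. The same 3 control libraries enter both axes, so a lean of rises to low control levels follows in part by construction.

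The largest rise in the model was that of c84833_g1, a gene almost silent in control liver. It stood at 36.6, 307 and 16.7 RPKM in the 3 severe libraries, against 0, 0.154 and 0.0492 RPKM in the 3 control libraries. All 3 severe libraries were far above the controls, but they differed widely among themselves, and replicate 2 was the highest. The log2 change was 5.79 (SE 0.91, limma adjusted p = 5.23e-06), and it was 4.60 without severe replicate 2. At earlier times its severe libraries averaged 69.6 ± 45.8 RPKM at 4 h, 329 ± 360 RPKM at 8 h and 125 ± 119 RPKM at 12 h (SD, n = 3 each). None of the 15 control libraries exceeded 0.719 RPKM, and at 24 h of moderate hypoxia the gene stood at 0.625, 1.05 and 0.504 RPKM.

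The second rise, that of c84828_g3, was more even among the severe libraries. Its levels were 178, 63.9 and 109 RPKM in severe hypoxia, against 0.246, 3.85 and 1.12 RPKM in control. The groups did not overlap, and the log2 change was 5.54 (SE 0.66, limma adjusted p = 6.95e-08). It exceeded that of c84833_g1 without severe replicate 2 (5.91 against 4.60), without control replicate 2 (6.06 against 5.85) and against all 15 control libraries (5.68 against 5.59). Moderate hypoxia gave 43.3, 55.8 and 40.6 RPKM, levels below all 3 severe libraries and above all 3 controls.

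The largest fall in the model was that of c88135_g4, at 2.16, 3.11 and 0.510 RPKM in severe hypoxia against 18, 41.3 and 34.4 RPKM in control. Every severe library was below every control of 24 h, and also below the lowest of the 15 control libraries, which had 3.78 RPKM. The log2 change was -3.50 (SE 0.69, limma adjusted p = 9.22e-05). The control level itself was high at 24 h, at 31.3 ± 12.0 RPKM (SD, n = 3) against 10.3 ± 4.80 RPKM at 12 h. Measured against the mean of all 5 control groups the fall was smaller, -2.44 on the log2 scale, and still called. The severe libraries were already lower at 0 h, at 4.92 ± 5.12 RPKM against 18.9 ± 11.8 RPKM in control (SD, n = 3 each). That change was -1.86 on the log2 scale and not called (limma adjusted p = 0.562). At 4 h the means were 10.8 RPKM in severe hypoxia and 9.92 RPKM in control.

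The next fall was that of c87933_g3, which had 2.58, 10.3 and 1.65 RPKM in severe hypoxia and 50.0, 100.3 and 22.1 RPKM in control. Both groups spread over a wide range without overlap, and the log2 change was -3.37 (SE 0.70, limma adjusted p = 0.000171). It was the larger of these falls against all 15 control libraries (-2.98 against -2.44 for c88135_g4), without severe replicate 2 (-4.00 against -3.81) and without control replicate 3 (-3.92 against -3.39).

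The genes that moved most in RPKM were other ones. Among the rises whose groups did not overlap, c84608_g7 gained most, with 2824, 2244 and 1710 RPKM in severe hypoxia against 1241, 1271 and 1036 RPKM in control. Its lowest severe library lay above its highest control, but the change was less than 2-fold, 0.91 on the log2 scale (SE 0.31, limma adjusted p = 0.0121). The call ended without severe 24 h replicate 1 (log2 change 0.73, adjusted p = 0.0667) and in a model of the 6 libraries alone (adjusted p = 0.109). The control level was lowest at 24 h, at 1183 ± 128 RPKM against 1464 to 1981 RPKM at the other 4 times (means, n = 3 each), and the severe libraries had averaged 2109 ± 368 RPKM at 0 h. Against all 15 control libraries the change was 0.54 (adjusted p = 0.0416). It was followed by c85950_g1, at 1451, 1982 and 1433 RPKM in severe hypoxia against 804, 596 and 451 RPKM in control. The log2 change was 1.42 (SE 0.48, limma adjusted p = 0.0107), and it was no longer called without control 24 h replicate 3 (1.21, adjusted p = 0.0521) or after quantile normalization (0.95, adjusted p = 0.0904).

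The 2 largest falls in RPKM with separate groups were those of c88255_g5 and c91232_g1. For c88255_g5 the severe libraries had 631, 784 and 899 RPKM and the control libraries 1821, 1609 and 1488 RPKM, a log2 change of -1.10 (SE 0.25, limma adjusted p = 0.000392). All 3 severe libraries were also below the lowest of the 15 control libraries, at 1103 RPKM. For c91232_g1 the values were 424, 501 and 654 RPKM in severe hypoxia and 1562, 865 and 986 RPKM in control, a log2 change of -1.09 (SE 0.28, limma adjusted p = 0.00124).

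The most abundant gene of the table, c78097_g1, is named after its values were seen. It averaged 2225 ± 965 RPKM in severe hypoxia and 4401 ± 1081 RPKM in control (SD, n = 3 each). The change was -1.04 on the log2 scale (SE 0.30, limma adjusted p = 0.00327), although severe replicate 2, at 3328 RPKM, lay above control replicate 2, at 3189 RPKM.

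**Figure D2:**
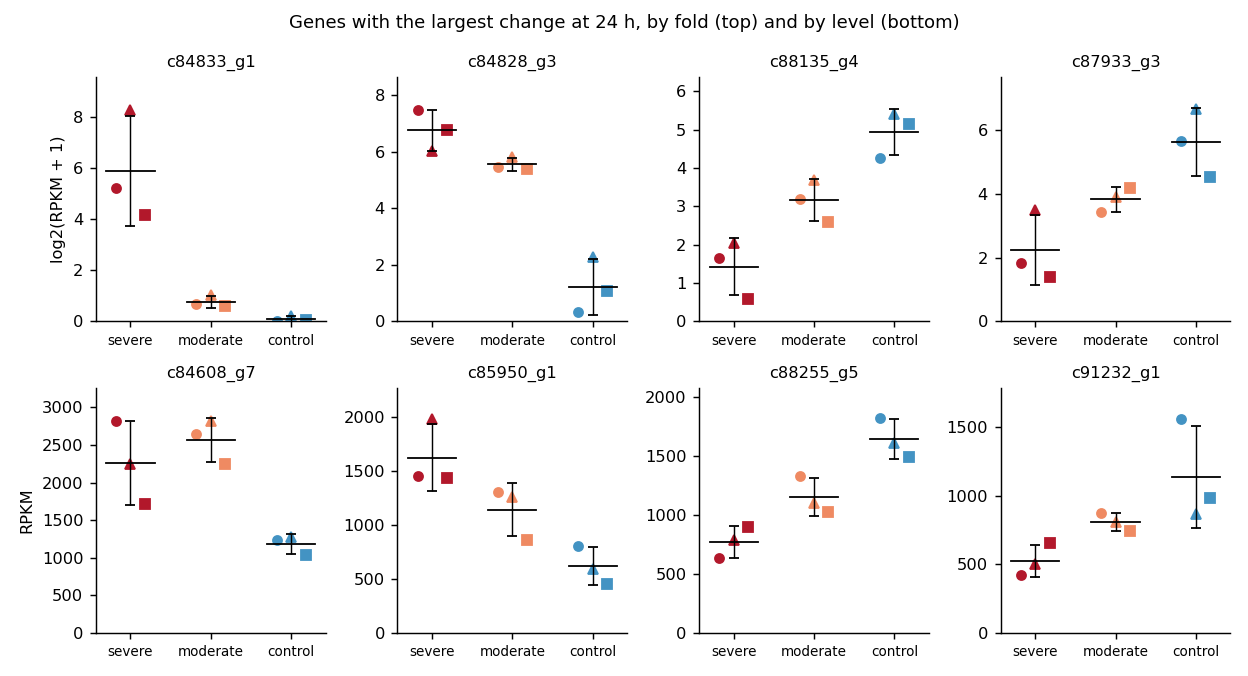
The 4 upper panels give log2(RPKM + 1) of the genes with the largest fold changes and the 4 lower panels RPKM of the called genes with the largest change in level among those whose severe and control libraries did not overlap, at 24 h of severe hypoxia, moderate hypoxia and control. Points are libraries (circle, triangle and square for replicates 1, 2 and 3), lines the mean and bars ± 1 SD. All 8 genes were chosen among those whose severe and control libraries do not overlap, so their separation follows from the choice. In c84833_g1 severe replicate 2 stands above replicates 1 and 3.

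The higher and the lower genes took very different shares of the libraries. The genes called higher held 9.64%, 9.05% and 8.81% of all reads in the severe libraries, against 2.68%, 3.85% and 3.21% in the control libraries. The genes called lower held 2.20%, 2.65% and 2.18% in severe hypoxia, against 6.01%, 5.40% and 6.38% in control. These lists were chosen on the same 6 libraries, so the shares describe the calls and do not test them. The summed loss was concentrated: 16 of the 689 lower genes made up 50% of the loss, and the summed level of all 689 fell by 13318 RPKM. The 1082 higher genes gained 19603 RPKM in sum, 50% of it in 77 genes.

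All listed genes together, whose selection by the authors may itself have used these libraries, held 14.7 ± 0.357% of the reads in severe hypoxia and 12.2 ± 0.650% in control (SD, n = 3 each). Every severe library was above every control. The difference was 2.53 percentage points (2-sided exact permutation p = 0.1, the smallest that 3 libraries against 3 can give). By 1 measure the summed RPKM of the listed genes was also spread over more genes. It took 120 ± 13.3 genes to make up 50% of it in a severe library and 73.0 ± 20.2 in a control library (SD, n = 3 each, exact permutation p = 0.1). By another measure the groups overlapped: the top 10 genes held 21.9 ± 2.11% of it in severe hypoxia and 27.3 ± 4.54% in control (SD, n = 3 each, exact permutation p = 0.2).

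**Figure D3:**
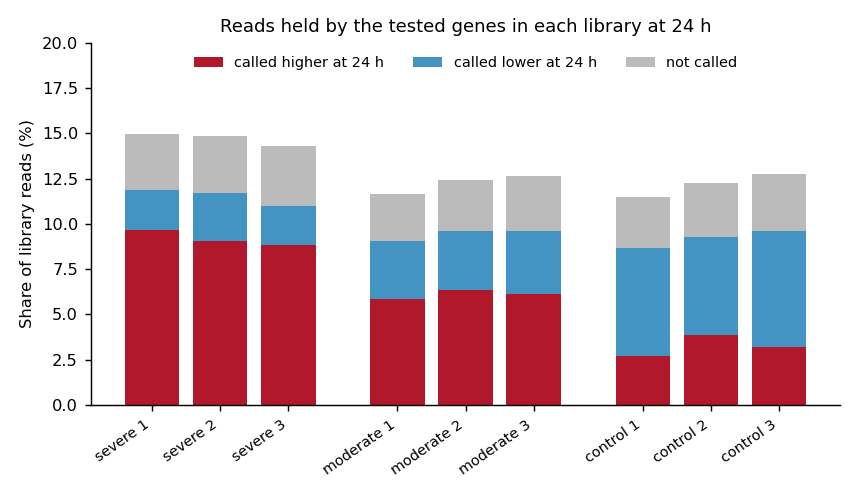
Bars give the share of all reads of a library, in percent, that fell on genes called higher (red), called lower (blue) and not called (grey) at 24 h, for the 3 libraries each of severe hypoxia, moderate hypoxia and control. The red part is 8.81% to 9.64% in the severe libraries and 2.68% to 3.85% in the control libraries, with moderate hypoxia between at 5.87% to 6.37%.

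The balance of rises and falls differed with the level of a gene. The level is a mean that includes the severe libraries, so the change itself can move a gene between classes. The part of this in the differences below was not tested. In the 53 genes with a mean of 100 RPKM or more over the 45 libraries, 15 were higher and 24 lower, with a median log2 change of -0.52. In the 314 genes from 20 to 100 RPKM, 145 were higher and 85 lower, and the median was 0.64. Below 2 RPKM, 126 of 368 genes were higher and 79 lower. After quantile normalization the abundant genes still had more falls than rises, with 14 higher, 23 lower and a median of -0.55, whereas the class from 20 to 100 RPKM had 104 higher and 111 lower genes. The excess of rises in that class was thus not seen under this scaling, which removes a common shift by construction and so cannot tell where the excess came from.

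Longer genes rose more often. The genes were divided by assembled length into 4 classes of 664. In the longest class, from 4043.5 bp, 326 were higher and 162 lower, with a median log2 change of 0.66. In the shortest class, up to 1460.25 bp, 223 were higher and 149 lower, with a median of 0. The classes between, from shorter to longer, had 258 and 275 higher genes, 186 and 192 lower genes and medians of -0.03 and 0.33. Falls too were thus called least often in the shortest class, and the medians did not rise at every step. The order held after quantile normalization, where the longest class had 260 higher and 199 lower genes and a median of 0.38, against 195, 182 and -0.12 in the shortest. The labels give an RNA integrity number above 8 for all libraries and no value per library, and the part of RNA quality in this relation was not tested.

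**Figure D4:**
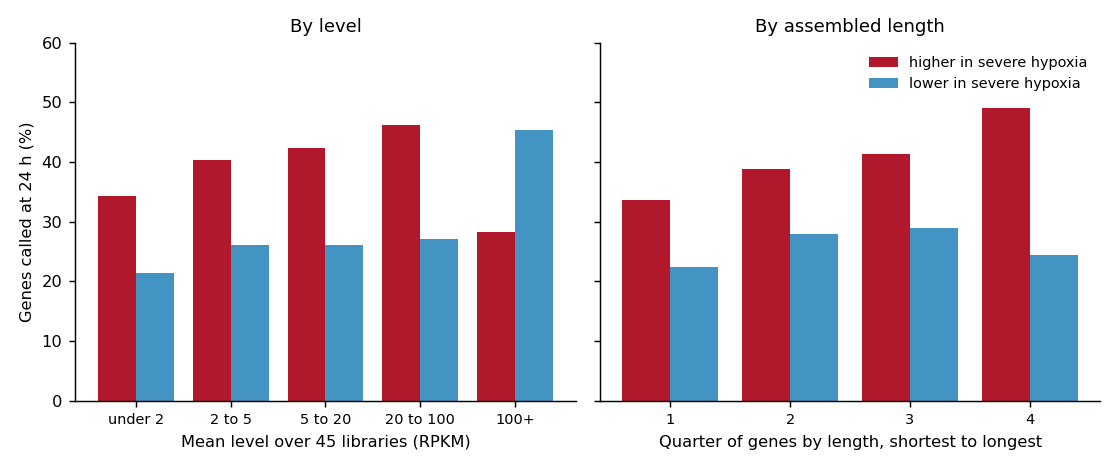
Bars give the percentage of genes called higher (red) and lower (blue) in severe hypoxia at 24 h. The left panel groups genes by their mean level over 45 libraries in RPKM and the right panel by 4 classes of assembled length, 1 the shortest. In the class of 100 RPKM and over 45.3% were lower and 28.3% higher, and 49.1% of the longest genes were higher against 33.6% of the shortest.

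Genes of the same assembly component, possibly fragments or near-identical copies that share reads, mostly moved together. Of the 2242 components tested, 329 held more than 1 gene, 743 genes in all. Among their 525 gene pairs both members were called in 313, with both higher in 229, both lower in 49 and opposite directions in 35. The direction was the same in 88.8% of these 313 pairs. Of all called genes 61.1% were higher, so many unrelated pairs would share a direction too. Pairs within a component have genes in common and are not independent, and the agreement was not tested. All 6 tested genes of component c88831, the largest, were higher.

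Complete silence in control was rare. Only c80321_g1, named after its values were seen, had reads in all 3 severe libraries and in none of the 3 controls of 24 h. It reached 38.1, 56.0 and 0.788 RPKM in severe hypoxia, so replicate 3 was far lower than the other two. Set against a floor of 3 reads over the 3 control libraries, 0.0296 RPKM, its mean of 31.6 RPKM was 1069-fold higher. Most fragments were counted by both mates, so 3 reads can be fewer than 3 fragments and this ratio is not a lower bound. The gene had no reads in the moderate libraries of 24 h either, and it was at most 0.0588 RPKM in the other control libraries. No gene (0 of 2656) had reads in all 3 controls and none in severe hypoxia.

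The 3 severe libraries were close to each other. Across genes, their log2 levels correlated with r of 0.940 to 0.948, the control libraries with r of 0.883 to 0.935, and severe with control libraries with r of 0.584 to 0.718 (genes are not independent replicates). The median SD over genes was 0.29 on the log2 scale in severe hypoxia and 0.35 in control. In control, replicate 1 was the library farthest from the mean in 1252 of 2656 genes, and without it 873 genes were higher and 649 lower. In severe hypoxia no library stood out in this way, with 959, 813 and 884 genes for replicates 1, 2 and 3. A small set of 7 genes spanned at least 8-fold among the severe libraries on the RPKM + 1 scale, all 7 were highest in replicate 2, and 4 of them were called higher, c84833_g1 and c80321_g1 included. In control 6 genes spanned as much, 4 of them highest in replicate 2.

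The control libraries of 24 h did not stand apart from earlier ones in any called gene. Against the mean of the controls at 0, 4, 8 and 12 h, limma called 0 of 2656 genes (0%), also with voom and without the trend, with 200 genes (7.53%) at an unadjusted p under 0.05. Without control 4 h replicate 1 there were 2 calls. With all 5 control groups as the reference in place of the 24 h controls, 1162 genes were higher (43.8%) and 898 lower (33.8%), 77.6% in all, in severe hypoxia at 24 h, and 1062 of the 1082 higher and 659 of the 689 lower genes were among them.

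Most genes called at 24 h were also called at 12 h, in other libraries and against other controls. Both times were tested in the same model with a single variance per gene, which favours calls of the same genes. A difference between the tanks of the oxygen levels could also recur at both times, so the overlap is not independent support. Of the 1082 genes higher at 24 h, 831 were also called higher at 12 h, which is 76.8% of the 24 h list and 85.1% of the 12 h list. Of the 689 lower genes, 544 were also called lower at 12 h, 79.0% of the 24 h list and 61.2% of the 12 h list. At 12 h, 36.8% of all tested genes were higher and 33.5% lower. The 24 h lists had these median log2 changes over 0, 4, 8, 12 and 24 h: 0.08, 0.31, 0.58, 1.08 and 1.28 for the higher genes, and -0.12, -0.22, -0.68, -1.15 and -1.18 for the lower ones. The last value of each row is that by which the genes were chosen. Over all genes the medians stayed between -0.01 and 0.22. Both lists leaned slightly already at 0 h, when 0 genes were called. At that time 58.5% of the higher genes were above 0, against 48.3% of all genes, and 67.3% of the lower genes were below 0, against 50.8% of all genes.

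**Figure D5:**
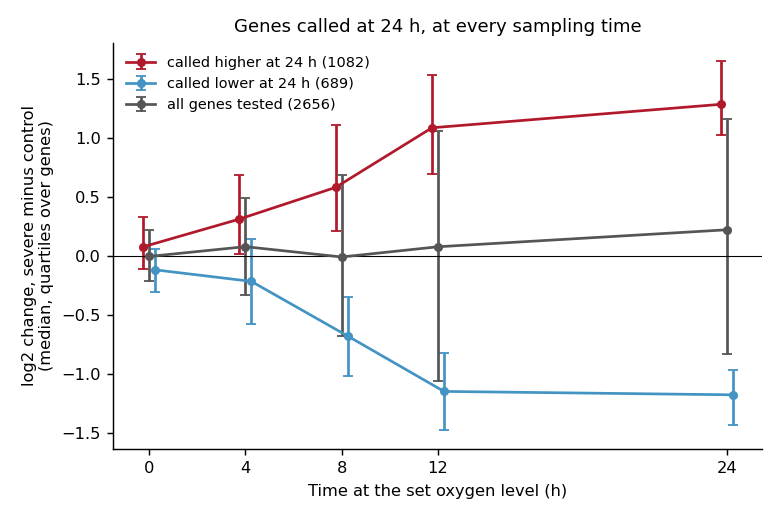
The x axis gives time in hours and the y axis the log2 change, severe minus control, of the 1082 genes called higher (red) and the 689 called lower (blue) at 24 h and of all 2656 genes (grey). Points are medians and bars the quartiles over genes. The medians of the 1082 and the 689 genes are at 0.08 and -0.12 at 0 h and at 1.08 and -1.15 at 12 h, and their position at 24 h follows from the choice of the genes.

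For a smaller part no earlier call had the same direction: 215 higher and 129 lower genes had no such call at 4, 8 or 12 h. Genes called in the opposite direction earlier are included in these counts. Of all tested genes, 6.63% were higher and 2.94% lower at 4 h, and 21.5% were higher and 18.6% lower at 8 h. Most of them leaned the same way at 12 h, 172 of the 215 above 0 and 121 of the 129 below 0. Their median log2 changes there were 0.31 and -0.48, against 1.06 and -1.19 at 24 h. In the test of the difference between 24 h and 12 h, 4 of the 215 and 1 of the 129 passed. For the rest a response different from that at 12 h was not shown. Among those that passed, c88571_g5 and c90582_g1 were called lower at 12 h (limma adjusted p = 0.0105 and 0.00541), so they turned. Over the whole 24 h lists an opposite call at an earlier time was rare, in 16 of 1082 higher and 7 of 689 lower genes. Conversely, 146 genes called higher and 342 called lower at 12 h were not called at 24 h, and 133 and 309 of these had the same sign at 24 h.

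Tested directly, the response at 24 h differed from that at 12 h in 5 genes (0.188%), 4 (0.151%) with a positive and 1 (0.0377%) with a negative difference, with 328 (12.3%) at an unadjusted p under 0.05. The clearest was c88571_g5, at 9.55, 13.3 and 12.8 RPKM at 24 h of severe hypoxia and 3.45, 2.43 and 3.28 RPKM in control. At 12 h it had 2.88, 1.60 and 2.58 RPKM in severe hypoxia and 4.81, 3.97 and 6.89 RPKM in control. So the gene was below control at 12 h and above it at 24 h, and the difference between the responses was 2.55 on the log2 scale (SE 0.43, limma adjusted p = 0.00197). At 24 h of moderate hypoxia it stood at 1.67, 2.89 and 3.77 RPKM.

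The gene c90582_g1 had the same turn, with 22.9, 21.0 and 25.7 RPKM at 24 h of severe hypoxia against 6.90, 14.4 and 14.2 RPKM in control, and 7.75, 6.01 and 11.0 RPKM at 12 h against 13.2, 15.7 and 24.9 RPKM. Its difference of 2.0 (SE 0.44, limma adjusted p = 0.037) lost its call with a pseudocount of 0.1, with voom, after quantile normalization, in a fit of the 4 groups only and in 8 of 12 fits without 1 library (adjusted p up to 0.203). The other 3 genes were named after their values were seen. Those of c91092_g8 (2.27, SE 0.44, limma adjusted p = 0.0092) and c90126_g1 (2.10, SE 0.46, adjusted p = 0.0328) were positive, and that of c90170_g9 was negative (-1.59, SE 0.30, adjusted p = 0.00655). This last gene stood at 0.912, 1.12 and 0.704 RPKM at 24 h of severe hypoxia against 3.46, 3.81 and 4.4 RPKM in control, while at 12 h it had 3.50, 2.47 and 3.83 RPKM in severe hypoxia and 2.66, 3.18 and 2.03 RPKM in control. In place of 5 calls there were 2 on leaving out severe 12 h replicate 1 or control 24 h replicate 1. There were 3 on leaving out severe 24 h replicate 2 or 3 or control 12 h replicate 2, 9 on leaving out control 24 h replicate 3, and 14 on leaving out severe 12 h replicate 3.

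Against 8 h, the response at 24 h differed in 292 genes (11%), of which 7.49% of all tested genes had a positive and 3.5% a negative difference. In 221 of these the level lay farther from control at 24 h than at 8 h, and in 71 nearer. Among genes that averaged 5 RPKM or more, the largest positive differences were those of c84649_g7 (2.54, SE 0.70, limma adjusted p = 0.0185) and c90095_g3 (2.45, SE 0.49, adjusted p = 0.00263). Levels of c84649_g7 were 15.6, 13.8 and 8.45 RPKM at 24 h of severe hypoxia against 1.14, 1.94 and 2.13 RPKM in control, and 1.44, 1.80 and 5.42 RPKM at 8 h of severe hypoxia against 4.18, 1.29 and 5.13 RPKM in control. The gene c90095_g3 had 20.9, 16.5 and 25.3 RPKM at 24 h of severe hypoxia against 1.08, 3.39 and 4.02 RPKM in control. At 8 h the same gene had 4.10, 3.36 and 9.70 RPKM in severe hypoxia and 5.52, 4.41 and 4.02 RPKM in control, where the groups overlapped.

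A rise that had gone by 24 h was seen in c82999_g2, at 1.64, 1.33 and 3.56 RPKM in severe hypoxia and 3.34, 2.85 and 5.26 RPKM in control at 24 h, where it was not called (adjusted p = 0.358). At 8 h its severe libraries had stood at 71.1, 24.8 and 6.6 RPKM and its control libraries at 2.38, 2.15 and 1.70 RPKM. The difference was -3.61 (SE 0.88, limma adjusted p = 0.011), and it was not called with voom (adjusted p = 0.108) or without severe 8 h replicate 1 (adjusted p = 0.0531). The fourth gene of this comparison, c87814_g6, differed by -2.93 (SE 0.96, limma adjusted p = 0.0425), a call lost in 10 of 12 fits without 1 library. The call of c84649_g7 was lost in 6 of 12 such fits, with an adjusted p of up to 0.0699. Leaving out severe 8 h replicates 1, 2 and 3 in turn gave 100, 145 and 470 calls in place of 292. Leaving out severe 24 h replicate 1 gave 143, control 24 h replicate 1 gave 155, and control 8 h replicates 1 and 3 gave 158 and 176. The count was 93 in a fit of these 4 groups only and 181 with voom.

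Against 4 h, 662 genes differed (24.9%), 435 (16.4%) with a positive and 227 (8.55%) with a negative difference, and 628 of them lay farther from control at 24 h. The largest positive differences were those of c81192_g1 (4.65, SE 0.59, limma adjusted p = 6.96e-06) and c90767_g2 (4.56, SE 1.12, adjusted p = 0.00439). At 24 h c81192_g1 had 17.2, 21.9 and 32.6 RPKM in severe hypoxia against 0.330, 0.344 and 0.488 RPKM in control, and at 4 h 0.292, 0.781 and 0.173 RPKM against 0.907, 0.499 and 1.85 RPKM. It overlapped with control or lay below it at 4 h and stood apart from control in every library at 24 h. The largest negative differences belonged to the 2 leading falls of 24 h, c88135_g4 (-3.78, SE 0.97, limma adjusted p = 0.00582) and c87933_g3 (-3.65, SE 0.99, adjusted p = 0.00792). At 4 h c87933_g3 had 19.0, 29.8 and 43.2 RPKM in severe hypoxia and 20.9, 11.7 and 54.1 RPKM in control, where the groups overlapped. A fit of these 4 groups only gave 164 calls in place of 662. The control libraries of 4 h spread most, with a median SD over genes of 0.55 on the log2 scale. The other severe and control groups had 0.25 to 0.35. The model of all 45 libraries takes a single variance per gene for all groups, so it can understate the error of this comparison.

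Moderate hypoxia at 24 h shares its 3 control libraries with severe hypoxia, so the changes of both levels against control are given side by side only. The genes called higher in severe hypoxia had a median log2 change of 1.28 in severe and 0.64 in moderate hypoxia, and the genes called lower -1.18 in severe and -0.83 in moderate hypoxia. Over all genes the medians were 0.22 in severe and 0.01 in moderate hypoxia. The moderate mean lay between the severe and the control mean in 912 of the 1082 higher genes (84.3%) and in 539 of the 689 lower ones (78.2%), against 66.0% of all genes and 34.2% of those not called. The choice of the lists by the gap between severe and control favours a mean in between.

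Tested against each other at 24 h, severe and moderate hypoxia differed in 481 genes (18.1%): 398 (15%) were higher and 83 (3.12%) lower in severe hypoxia. Of the 1082 higher genes, 377 were also higher than in moderate hypoxia, and 68 of the 689 lower genes had a lower level than in moderate hypoxia. Both comparisons use the same 3 severe libraries, which favours such an overlap, so it is not independent support. After quantile normalization 320 genes differed, without moderate 24 h replicate 1 there were 312 and with a 2-fold minimum 306. The largest difference in the model was that of c84833_g1, described above, at 5.11 on the log2 scale (SE 0.91, limma adjusted p = 0.000319). The next was that of c92117_g1, at 23.8, 33.5 and 35.6 RPKM in severe hypoxia against 0, 0.202 and 0.311 RPKM in moderate hypoxia (4.76, SE 0.57, limma adjusted p = 2.06e-06). Control had 0.229, 0.207 and 0.208 RPKM, levels near those of moderate hypoxia. Its difference exceeded that of c84833_g1 with a pseudocount of 0.1 (7.04 against 6.17), with voom (8.34 against 6.36) and without severe replicate 2 (4.69 against 3.92).

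The largest negative differences were those of c88827_g1 and c90070_g7, in both of which moderate replicate 3 was far above the other moderate and the severe libraries of 24 h. Such levels also occurred without hypoxia: control libraries of 4 h ranged from 6.36 to 137 RPKM and from 6.14 to 119 RPKM. For c88827_g1 the levels were 2.74, 3.86 and 0.378 RPKM in severe hypoxia against 18.6, 24.2 and 111 RPKM in moderate hypoxia (-3.70, SE 1.05, limma adjusted p = 0.0117). Those of c90070_g7 were 3.65, 4.28 and 1.53 RPKM in severe hypoxia against 19.2, 20.1 and 109 RPKM in moderate hypoxia (-3.19, SE 1.05, limma adjusted p = 0.0299). Without moderate replicate 3 neither was called (-2.93, adjusted p = 0.0877, and -2.38, adjusted p = 0.179). The calls also ended without severe replicate 3 (adjusted p = 0.0703 and 0.108), and that of c90070_g7 without severe replicate 1 (adjusted p = 0.063). At 24 h control had 15.8, 14.7 and 19.8 RPKM of c88827_g1 and 12.0, 12.7 and 16.9 RPKM of c90070_g7. Against control, severe hypoxia was called lower in c88827_g1 (limma adjusted p = 0.0296) but not in c90070_g7 (adjusted p = 0.106). The control means of both genes ran close together at every time, so they may not be separate results.

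A further 885 genes were not called at 24 h. For 259 of them the 95% interval of the change stayed within 2-fold in either direction, and for 626 it reached 2-fold in at least 1 direction, so a change of that size is not excluded for them. Of the 885, 146 (16.5%) had been called higher and 342 (38.6%) lower at 12 h, against 36.8% and 33.5% of all tested genes. The gene with the largest uncalled change, c78919_g1, was named after its values were seen. It had 3.46, 72.9 and 0.782 RPKM in severe hypoxia and 0.675, 2.85 and 0.302 RPKM in control (log2 change 2.04, limma adjusted p = 0.105), and the groups overlapped.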

How the data were processed

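Liver RNA was read from both ends on an Illumina HiSeq, and the cleaned reads were assembled with Trinity, per the labels' protocols. The deposited tables, 1 per library, hold RPKM by the authors; the headers name no unit, so it was taken from the values. For the aligner, the counter and the rule of listing: not given in the sources used here. Gene lengths and library totals that turn all 117443 values above 0 into whole reads (tolerance 0.01) were recovered; most fragments were counted by both mates, so reads are not independent molecules and floors cover counting error only. The table of control 8 h replicate 2 lists 2527 genes; the others are missing values there.

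One model of 15 group means over 45 libraries was fitted to log2(RPKM + 1) with limma 3.58.1 in R 4.3.3 (moderated variances with a trend, 30 residual degrees of freedom). It took genes of at least 1 RPKM in at least 3 libraries. The code was tried on simulated data with few changed genes and equal spread in all groups. The real data differ in both, so the trial does not measure the error rate here. The count test foreseen for counts did not apply. Single values were compared by exact permutation tests (scipy 1.17.1). Named genes are, per comparison, the 2 largest called rises and falls with a mean of at least 5 RPKM (severe against control: groups without overlap, and again by change in RPKM); others are said to be named after their values were seen. Members and lists were chosen with earlier results of these data known. No 2 of the 6 libraries were duplicates (lowest chi-square per gene 101).

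Alternatives were another pseudocount, filter, scaling, variance model, voom on recovered reads (without control 8 h replicate 2), the compared groups alone, a 2-fold minimum, all controls as reference, the replicate number as a block, and each library left out.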

Additional observations from a re-analysis of the deposited data

Results flagged for a closer look

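The response to severe hypoxia, taken as severe minus control, was tested for a difference between 24 h and each earlier time, and the results that passed are collected here. Against 4 h, 662 genes differed: c81192_g1 by 4.65, c90767_g2 by 4.56, c88135_g4 by -3.78 and c87933_g3 by -3.65 on the log2 scale led them. Against 8 h, 292 genes differed, among them c84649_g7 (2.54), c90095_g3 (2.45), c82999_g2 (-3.61) and c87814_g6 (-2.93). The calls of c84649_g7 and c87814_g6 were lost in 6 and 10 of 12 fits without 1 library, and that of c82999_g2 in 1 of 12 and with voom. Against 12 h, 5 genes differed, among them c88571_g5 (2.55) and c90582_g1 (2.0), the latter with its call lost in 8 of 12 such fits. Each test is an interaction term in limma with an adjusted p under 0.05. Library values of these genes are given in the report, except for c90767_g2 and c87814_g6 and for c88135_g4 at 4 h. The 3 counts share the libraries of 24 h and are not independent of each other.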

How the results depend on the processing

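For severe hypoxia against control at 24 h, the counts of 1082 higher and 689 lower genes ranged from 840 to 1162 and from 489 to 898 over 10 alternatives each, and from 873 to 1073 and 503 to 649 without 1 library. Of 142 alternatives for counts and shares, 115 stayed within 1.5 times the reported value or on the same side of the test. A further 22 were weaker and 5 stronger. Of 332 for named genes, 290 kept their call, 42 lost it and 0 changed sign. For the response at 24 h against 4 h the count was 164 in a fit of the compared groups only and 476 to 820 without 1 library. Against 8 h it was 181 with voom, 93 in a model of the compared groups and 100 to 470 without 1 library. Against 12 h it was 3 with a pseudocount of 0.1, after quantile normalization and with voom, 2 with a filter of 5 RPKM, 1 in a model of the compared groups and 2 to 14 without 1 library. Models of the compared groups hold fewer samples. Severe against moderate hypoxia gave 320 calls after quantile normalization, 306 with a 2-fold minimum and 312 to 384 without 1 library. Control at 24 h against the other control times gave 0 to 2 calls without 1 library. The share of reads on listed genes was 2.77 percentage points higher than in the 14 control libraries with all genes listed (exact permutation p = 0.00294). That p is the smallest this layout can give. These controls pool the sampling times, so time and oxygen level are not separated in it. Against the controls of 24 h the difference was 2.18 to 2.82 without 1 library. Unless stated, the cause was not tested.

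With the replicate number as a block, 1083 genes were higher and 703 lower, and no other count moved by over 1.5 times and no gene named by the rule lost its call. Genes named after their values were seen were not refitted in this way. The numbers did not pair the libraries: same-numbered severe and control libraries of 24 h deviated from their group means with r of -0.0567, -0.0514 and -0.0752 across genes. With 3 libraries a group, the median 95% half-width of the change of an uncalled gene was 0.74 on the log2 scale.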
